A study of Mus musculus with 10 samples.

Results

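Broad open chromatin domains were stretches of DNA at which ATAC-seq peaks of wildtype embryonic mouse cochlear epithelium reached a width of 1500 bp or more. Overlapping peak rows were merged within each of 3 wildtype libraries on chromosomes 1 to 19, merged peaks of at least 1500 bp were joined over the libraries into 195 regions, and regions that overlapped such a peak in at least 2 of 3 libraries were kept. This left 65 domains of 119906 wildtype regions, a region being a place with a merged peak in at least 2 of 3 libraries. Of the 65, 51 were broad in 2 libraries and 14 in all 3. As the domains were chosen by wildtype widths, those widths are given as a description. The 1550 regions outside the domains with peaks of 1000 bp or more in at least 2 of 3 libraries, called near-broad regions here, served as the class next to the domains.

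The study examined the epithelium of the cochlear duct, the tissue that gives rise to the organ of Corti, in mouse embryos at E13.5 (embryonic day). ATAC-seq came from whole epithelia, freed with dispase and collagenase, of wildtype embryos (3 libraries) and of SoxC double knockout embryos (2 libraries). The titles of the ATAC samples read cochlea, whole organ. CUT&RUN for the transcription factor Sox4, with a guinea pig antibody, came from GFP-positive progenitors sorted from wildtype p27kip1-GFP mice (3 replicates). The labels name the knockout strain, Pax2cre SoxCfl/fl, at the single-cell library, which is not used here, and do not say which SoxC genes are floxed or whether embryos were pooled. A Cre under Pax2 acts in the otic epithelium, and cells in which it does not act keep the genes. The labels do not state that replicates came from separate embryos, so the spread between libraries may be technical.

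ATAC-seq uses the Tn5 transposase, which inserts adapters where DNA is not covered by nucleosomes, and a peak marks a place with more insertions than its surroundings. Most peaks span about the length freed around a factor or a promoter, while wide peaks mark stretches where several nucleosomes are displaced or mobile. Wide open stretches are often found at CpG islands, the CpG-rich and usually unmethylated DNA at many vertebrate promoters. Sox4 and Sox11 are high-mobility-group factors of the SoxC group that act in neural and sensory progenitors of the inner ear.

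The promoter windows of 6 genes at domains are printed because they show the sequence range within the set, from dense CpG islands to promoters with few CpG. They run from 250 bases before to 50 bases after a transcription start, come from RefSeq (build GRCm38.p6, mm10), and are written 5′ to 3′ on the gene's strand with every CpG in capitals. These 6 were picked after their values were seen, from 17 genes that the naming rule allowed. Plekha5 (chr6:140423849-140424148, plus strand), Dipk2a (chr9:94538032-94538331, minus strand) and Nrcam (chr12:44328635-44328934, plus strand) held 59, 43 and 37 CpG. Rab28 (chr5:41708130-41708429, minus strand), Itgb8 (chr12:119238227-119238526, minus strand) and Prom1 (chr5:44101687-44101986, minus strand) held 16, 13 and 10 CpG. Each window lies inside its domain.
Plekha5: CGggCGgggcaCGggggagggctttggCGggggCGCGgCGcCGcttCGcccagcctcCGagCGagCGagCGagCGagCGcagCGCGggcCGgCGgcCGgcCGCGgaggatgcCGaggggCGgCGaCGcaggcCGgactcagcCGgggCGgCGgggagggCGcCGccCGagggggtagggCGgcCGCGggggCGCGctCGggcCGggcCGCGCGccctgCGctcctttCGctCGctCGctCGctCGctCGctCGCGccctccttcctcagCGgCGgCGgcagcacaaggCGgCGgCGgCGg
Dipk2a: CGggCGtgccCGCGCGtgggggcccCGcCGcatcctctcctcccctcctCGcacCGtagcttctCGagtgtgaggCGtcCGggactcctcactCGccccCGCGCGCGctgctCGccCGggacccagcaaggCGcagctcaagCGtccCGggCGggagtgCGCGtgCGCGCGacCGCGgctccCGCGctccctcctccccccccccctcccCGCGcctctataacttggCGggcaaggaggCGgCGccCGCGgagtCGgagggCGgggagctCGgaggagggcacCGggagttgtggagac
Nrcam: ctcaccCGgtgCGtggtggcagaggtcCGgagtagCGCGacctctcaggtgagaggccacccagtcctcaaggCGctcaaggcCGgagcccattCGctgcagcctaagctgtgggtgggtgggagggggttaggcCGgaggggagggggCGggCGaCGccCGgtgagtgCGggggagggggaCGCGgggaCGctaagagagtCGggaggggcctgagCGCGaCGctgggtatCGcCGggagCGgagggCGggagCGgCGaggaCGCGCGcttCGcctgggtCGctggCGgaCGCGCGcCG
Rab28: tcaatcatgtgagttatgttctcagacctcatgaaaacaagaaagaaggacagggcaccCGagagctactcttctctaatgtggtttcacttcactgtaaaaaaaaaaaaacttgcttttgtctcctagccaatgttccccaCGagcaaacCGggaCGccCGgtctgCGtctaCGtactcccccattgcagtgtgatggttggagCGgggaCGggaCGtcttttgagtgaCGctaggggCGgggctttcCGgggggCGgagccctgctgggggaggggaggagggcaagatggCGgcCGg
Itgb8: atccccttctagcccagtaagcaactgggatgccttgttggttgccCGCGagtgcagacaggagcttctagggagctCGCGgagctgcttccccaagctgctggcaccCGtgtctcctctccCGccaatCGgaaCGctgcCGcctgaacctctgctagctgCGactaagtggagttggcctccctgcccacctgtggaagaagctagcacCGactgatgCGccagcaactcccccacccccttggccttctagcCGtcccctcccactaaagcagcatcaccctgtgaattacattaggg
Prom1: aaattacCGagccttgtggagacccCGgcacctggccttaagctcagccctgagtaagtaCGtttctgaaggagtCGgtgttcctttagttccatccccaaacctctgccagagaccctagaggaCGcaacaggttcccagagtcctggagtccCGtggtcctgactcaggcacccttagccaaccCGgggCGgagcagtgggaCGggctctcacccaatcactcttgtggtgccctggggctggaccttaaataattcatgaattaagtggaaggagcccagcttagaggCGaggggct

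The libraries differed in ways that bear on every width. The wildtype lists held 145099 to 173032 merged autosomal peaks, with a median width of 231 to 271 bp, and the knockout lists held 192810 and 208902, with medians of 321 and 358 bp. Peaks of 1500 bp or wider numbered 145, 43 and 86 in wildtype replicates 1, 2 and 3, against 2977 and 1091 in knockout replicates 1 and 2. At rank 50000 the deposited −log10 p, the caller's significance of a peak, reached 104 and 50.5 in knockout replicates 1 and 2 but 8.75 in wildtype replicate 3, and read depth is unknown from peak lists. Names of the knockout lists give a p threshold and a peak limit that wildtype names lack. The smallest −log10 p kept was 2.00 (wildtype replicates 1 to 3), 3.98 (knockout replicate 1) and 2.00 (knockout replicate 2). These values show no p threshold that separates the genotypes, and only knockout replicate 1 stopped at a stricter value. With depth unknown and a peak limit named for the knockout only, calling, depth and genotype cannot be told apart. All 5 lists held a peak at Sox4 and at Sox11, with ranks by −log10 p of 3395 to 11572 in the wildtype and 3517 to 6566 in the knockout libraries, and such peaks do not check a deletion whose extent is not given. A peak lay within 1 kb of a gene end for 10 or 11 of 11 epithelial markers in every library (up to 74.3% of all coding genes). The same held for 8 to 9 of 11 otic mesenchyme markers in the wildtype and all 11 in the knockout libraries, and for 4 to 5 of 11 markers of blood, endothelium and macrophages in the wildtype against 5 and 7 in the knockout libraries. Spiral ganglion neuron markers had such a peak at 10 to 12 of 12 genes, and glia and melanocyte markers at 8 or 9 of 9, over the 5 libraries. These counts therefore do not tell which cells gave the peaks. The part of other cell types in the results below was not tested.

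The widest peak in a domain had a median of 1640, 1500 and 1564 bp in wildtype replicates 1, 2 and 3. Replicate 1 supplied most of the support, with a broad peak at 61 of the 65 domains, against 33 for replicate 2 and 50 for replicate 3. Without replicate 1 the rule would have kept 18 domains, without replicate 2 it would have kept 46, and without replicate 3 it would have kept 29. In replicate 2 the open stretch was broken into more than 1 peak at 24 domains, against 5 and 13 in replicates 1 and 3. A domain held a median of 5 called summits in every library, against 3 in each wildtype library for near-broad regions.

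The widest domain by its wildtype median lay at Dipk2a (chr9:94537039-94539081), which encodes a secreted protein of the divergent protein kinase family. Its widest peak spanned 2018, 1102 and 2043 bp in wildtype replicates 1, 2 and 3 and 2048 and 2039 bp in knockout replicates 1 and 2. Wildtype replicate 2 fell short of the other 4 libraries there, and knockout replicate 2 lay below the widest wildtype library. At Cul1 (chr6:47453597-47455315), the scaffold of SCF ubiquitin ligases, the wildtype widths were 1670, 1616 and 1719 bp and the knockout widths 1955 and 1939 bp. Both knockout values at Cul1 exceeded all wildtype values. Plekha5 (chr6:140423595-140425325), an adaptor with a pleckstrin homology domain, measured 1721, 1440 and 1719 bp in the wildtype and 1792 and 1785 bp in the knockout libraries. Tiparp (chr3:65527663-65529471), a mono-ADP-ribosyltransferase induced through the aryl hydrocarbon receptor, measured 1741, 1015 and 1809 bp against 1943 and 1816 bp. At both genes the genotypes did not overlap and wildtype replicate 2 was the narrowest library.

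Prom1 (chr5:44100088-44102142), which encodes the apical membrane protein prominin-1, measured 1751, 879 and 2042 bp in the wildtype and 1796 and 1747 bp in the knockout libraries. Here the knockout widths lay within the wildtype range. The other domains among the 12 widest lay at Slc66a2, Irs2, Mb21d2, Pde3b, Plppr1, 4930426D05Rik and Strn3, with wildtype medians of 1664 to 1980 bp. The broadest single wildtype peak in any domain, 2267 bp in replicate 2, lay at Chst2, a carbohydrate sulfotransferase gene. Chst2 measured 1176 and 1516 bp in the other wildtype libraries and 2413 and 2410 bp in the knockout libraries. Replicate 2 stood above the other wildtype libraries at Chst2, the reverse of its place at Dipk2a.

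**Figure D1:**
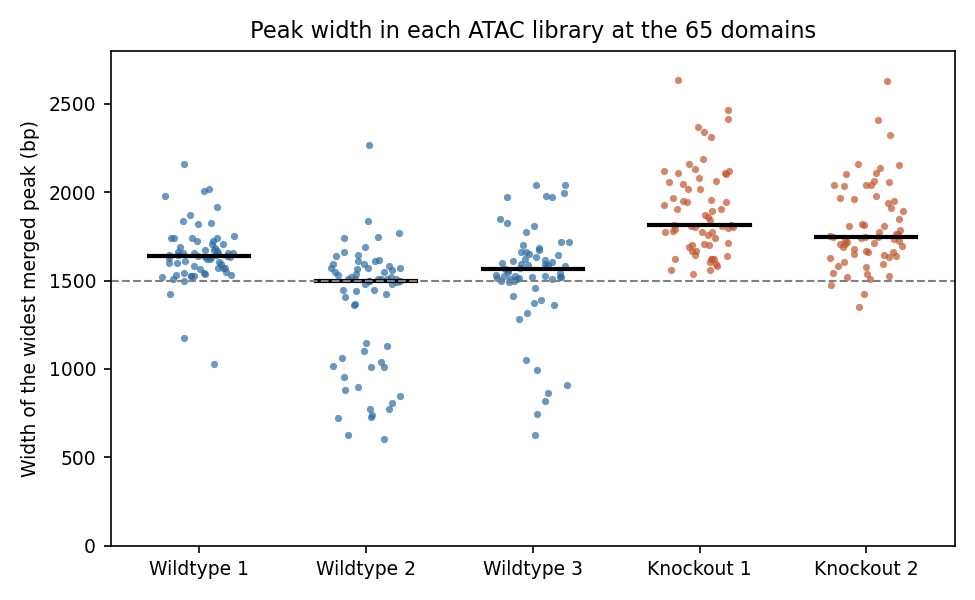
Width in bp of the widest merged peak at each of the 65 domains in the 3 wildtype and 2 knockout ATAC libraries, with the 1500 bp threshold as a dashed line. The medians are 1640, 1500 and 1564 bp in the wildtype and 1817 and 1747 bp in the knockout libraries, and the spread is widest in wildtype replicate 2.

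The threshold cut through a continuous range of widths. The domains just inside it lay at Clock, a core circadian transcription factor gene (1497, 1500 and 1564 bp in wildtype replicates 1 to 3), Gm20783 (1917, 1421 and 1500 bp) and Rap1gds1 (1632, 1405 and 1506 bp). Just outside it were regions at Pfn2, which encodes the actin-binding protein profilin 2 (1513, 1497 and 1482 bp), Zzz3 (1492 and 1449 bp in replicates 1 and 2 and 1 bp short of the threshold in replicate 3) and Pik3r1, the regulatory subunit of phosphoinositide 3-kinase (1739, 1250 and 1489 bp). The choice rests on the second widest wildtype peak, which was 1500 to 1506 bp at the first 3 and 1489 to 1497 bp at the others.

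Most domains sat at the ends of coding genes. A gene end lay inside 46 of the 65 domains and within 1 kb of a further 7, a share of 81.5% (53 of 65, exact 95% binomial interval 69.97% to 90.08%). Over all wildtype regions the share was 14.3%, and in near-broad regions it was 72.6% (interval 70.3% to 74.8%). The interval of the domains overlapped that of the class next to them, so a further rise in the share above 1500 bp was not detectable with 65 domains. A wide interval reaches a gene end more easily than a narrow one, so the share was also taken from the strongest wildtype summit alone. It was then 72.3% at the domains, 68.2% in near-broad regions, 35.9% from 500 bp to under 1000 bp and 7.33% below 500 bp. The summit share was also taken within classes of median wildtype rank, which match peak strength only roughly. Up to rank 5000 it was 85.7% (18 of 21, interval 63.7% to 96.95%) at the domains. The shares there were 77.99% in near-broad regions and 65.2% over all regions outside domains. Between ranks 5000 and 20000 it was 72.7% (24 of 33) at the domains, 67.9% in near-broad regions and 34.8% over all regions outside domains. Between ranks 20000 and 50000 it was 45.5% (5 of 11, interval 16.7% to 76.6%) at the domains. The share in near-broad regions (137 of 274) lay within that interval, and that over all regions outside domains (12.8%) lay below it. Intervals cover counting error only, since regions share libraries and are not independent samples.

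**Figure D2:**
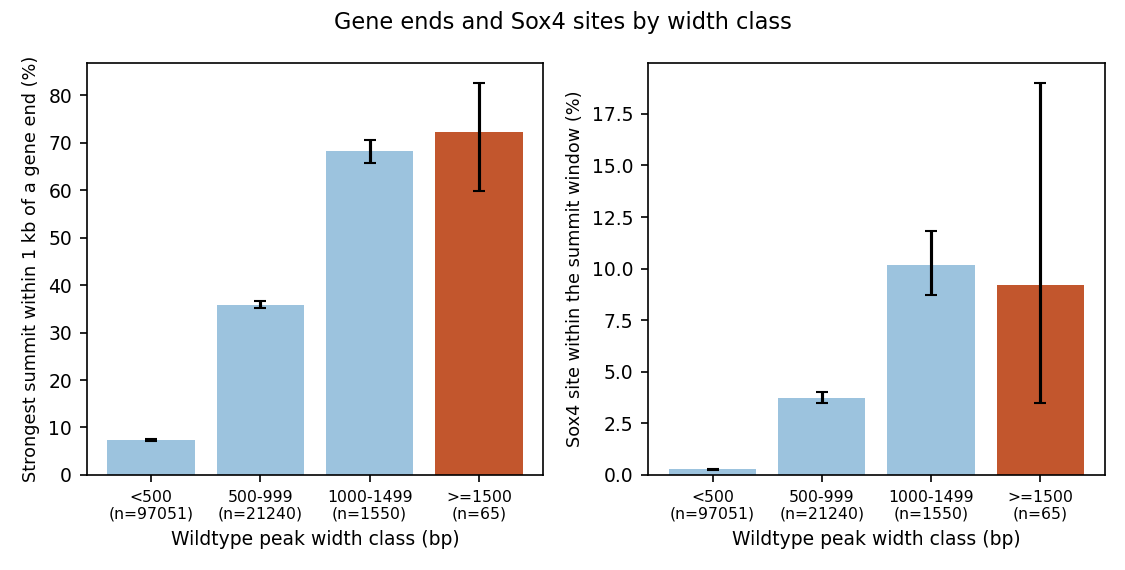
Share of wildtype regions (%) within 1 kb of a coding gene end, measured from the strongest summit, and share with a Sox4 site in the window of 250 bp to either side of that summit. The 4 classes are of peak width in bp, with exact 95% binomial intervals. The gene-end share is higher in each wider class. The Sox4 share is 10.2% in near-broad regions and 9.23% at the domains, and for both shares the intervals of the 2 widest classes overlap.

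Of the 12 domains away from gene ends, 3 held an annotated start of a coding gene more than 1 kb from its outermost end: Srpk2, a kinase of splicing factors, Prdm10, a zinc-finger factor, and Ecpas, a proteasome adaptor. A further 3 lay in gene bodies, at Maml3, a Mastermind co-activator of Notch, at Mctp1, a C2-domain membrane protein, and at Trim36, a ubiquitin ligase. Trim36 is on chromosome 18, where internal starts were not looked for. At Maml3 and Mctp1 a start without a promoter window would have been missed. The last 6 lay between genes. Slc24a3 was the nearest gene at 32457 bp for the first, Otol1 at 13361 bp, Zfp958 at 44695 bp and Irs2 at 58335 bp for the next ones. The final pair, chr5:42804028-42805545 and chr8:50915188-50916923, lay 405317 and 1392364 bp from any coding gene end. The remote chromosome 5 domain was among the most steady, with 1518, 1507 and 1460 bp in the wildtype and 1561 and 1472 bp in the knockout libraries. The chromosome 8 domain was split in wildtype replicate 2, with 1626, 776 and 1683 bp in the wildtype and 1811 and 1807 bp in the knockout libraries.

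Promoter windows on chromosome 18, which has 5 of the domains, were not used here. The windows used covered 16456 of the 20661 coding genes, so starts of the other genes were not seen. At 40 of the other 60 domains a coding start with such a window lay inside, and 3 domains held the starts of 2 coding genes. The remaining domains may hold a start without a window. That at Rest, for example, held a gene end but no start with a window. Around the start nearest the strongest summit, a domain reached a median of 595.5 bp upstream and 1084 bp into the gene. The domain extended further into the gene than upstream at 29 of 40 (72.5%), against 63.5% of 955 starts in near-broad regions, where the medians were 527 and 713 bp. The strongest wildtype summit lay within 250 bp of the start at 27 of 40. At Nrcam, the domain reached 323 bp upstream and 1501 bp into the gene, with the summit 15 bp past the start. At Prom1 it reached 406 bp upstream and 1648 bp into the gene. Igf1r, the receptor of insulin-like growth factor, was laid out the other way, with 1766 bp upstream, 218 bp into the gene and the strongest summit 1305 bp upstream of the start.

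**Figure D3:**
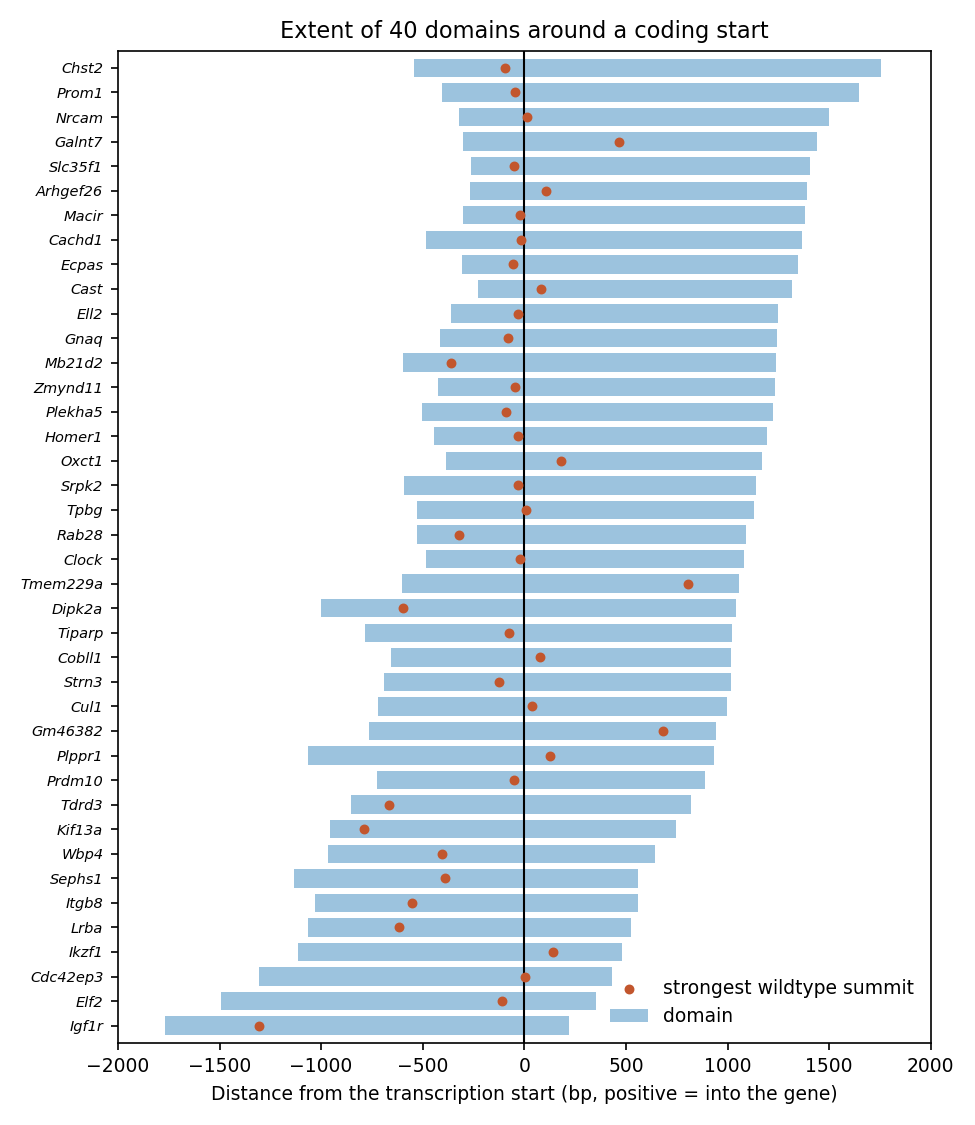
Extent of 40 domains around a coding transcription start (bars, distance in bp, positive into the gene) with the strongest wildtype summit (points). The median reach is 595.5 bp upstream and 1084 bp into the gene, and 29 of 40 bars extend further into the gene than upstream.

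The promoters at domains were CpG-rich and their genes long. A total of 53 RefSeq windows of 43 coding genes overlapped domains. Their CpG count had a median of 34 in 300 bases (quartiles 17 to 43), against 27 at near-broad regions, 22 at other open promoters and 14 over all 20084 coding windows. Their GC content had a median of 73.0%, against 67.3%, 62.0% and 57.0% in the same order. The share with at least 20 CpG was no higher at domains than in the class next to them, 71.7% against 73.6%, so the distribution was wider rather than shifted throughout. The windows printed above span much of that range, with Plekha5 near the top (62 CpG was the highest count at any domain) and Prom1 near the bottom (3 was the lowest). Gene length had a median of 101320 bp at domains, 51636 bp at near-broad regions, 24893 bp at other open promoters and 17280 bp over all coding genes with a window. Genes over 100 kb made up 51.2% of the 43 genes (22), 29.4% at near-broad regions, 14.5% at other open promoters and 10.8% of all.

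**Figure D4:**
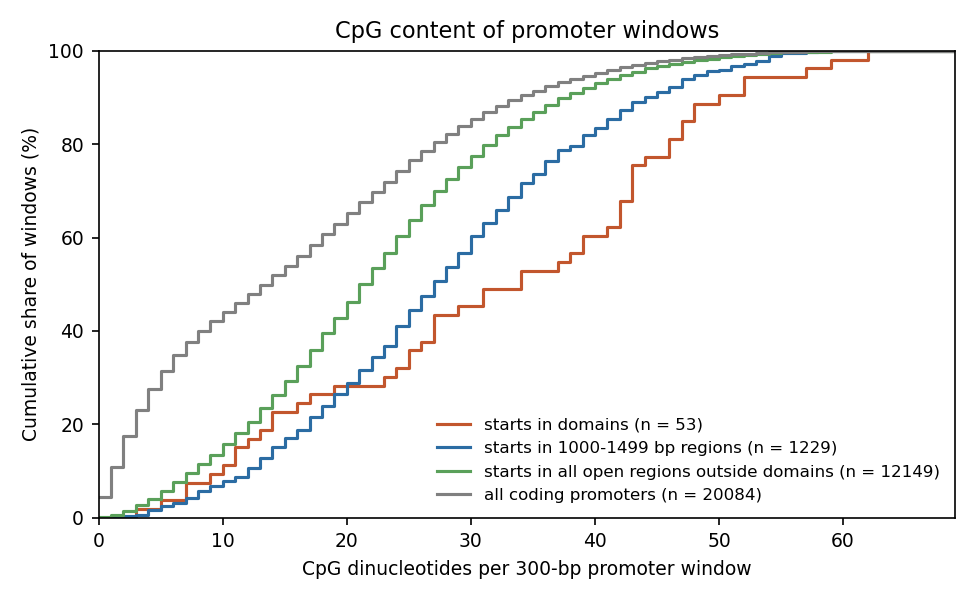
Cumulative share (%) of 300-base promoter windows by the number of CpG dinucleotides, for windows at domains (53), at near-broad regions (1229), at other open regions and over all coding promoters. The median counts are 34, 27, 22 and 14, and the lower part of the domain curve runs together with that of the class next to it.

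Short motifs were counted on both strands as plain letter matches. GGGCGG, the GC box bound by Sp and Klf factors, stood in 79.2% of the 53 windows, in 78.0% of near-broad windows, in 67.6% of other open promoters and in 47.0% of all coding windows. CCAAT, the box bound by NF-Y, stood in 9 of the 53 windows, in 27.7% of near-broad windows, in 38.1% of other open promoters and in 38.1% of all windows. The Ets-type motif CCGGAAG stood in 3.77% (2 windows, that of Tiparp included), 14.4%, 17.8% and 11.9% in the same order. AACAAAG, a core of the Sox motif, stood in 0 of the 53 windows, in 2.28% of near-broad windows, in 3.55% of other open promoters and in 4.89% of all windows. TATAAA stood in 3.77%, 3.74%, 6.17% and 12.7%, and TGACTCA, the AP-1 site, in 7.55%, 3.25%, 3.04% and 4.70%. For GGGCGG and TATAAA the domains and near-broad windows lay within about 1 percentage point of each other. None of the 6 motifs contains another, and the number of windows limits what these shares can show. The 53 windows came from 43 genes, so some genes counted more than once. Median GC content also differed, at 73.0%, 67.3%, 62.0% and 57.0% in the same order. The part of base composition in these shares was not tested.

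Domains at gene ends had fewer coding genes around them than other regions at gene ends. No value over the whole genome was taken beside these counts. A median of 7 coding genes lay within 500 kb of a domain at a gene end (quartiles 5 to 10), against 9 for near-broad regions at gene ends and 15 for other regions at gene ends. The gene-dense chromosomes 7, 11, 17 and 19 held 11.3% of the domains at gene ends (6 of 53), 13.6% of near-broad regions at gene ends and 24.2% of other regions at gene ends. Chromosome 3 held the most domains, 8, followed by chromosomes 5 and 13 with 6 each.

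The 16 lists of cell type and pathway genes held 219 genes, and 1 of them, Nrcam, overlapped a domain or had one within 1 kb, against 66 of all 20661 coding genes (0.319%). With so low a background, counts of 0 or 1 in such lists are no result about these genes. Nrcam, a cell adhesion molecule of the immunoglobulin superfamily listed here among supporting cell genes, measured 1825, 955 and 1616 bp in the wildtype and 2117 and 2103 bp in the knockout libraries. Both knockout libraries exceeded all wildtype libraries at Nrcam. Near-broad regions held 19 of the 219 genes, a share close to the background of 7.57% of coding genes, so this is no result about these genes. Among them were Jag1, Hey1, Lin28b, Hmga2 and Sox11 of the prosensory list (5 of 19), Atoh1 and Myo6 of the hair cell list (2 of 18) and Lgr5 of the supporting cell list (1 of 20). The BMP and TGF-beta list had the highest share (6 of 18). The roof and lateral wall, spiral ganglion, otic mesenchyme, blood, epithelium, cell cycle and housekeeping lists had 0. None of 77 ribosomal protein genes, 58 histone genes, 39 Hox genes or 14 housekeeping genes had a domain. Over 22 gene families, the forkhead list alone had a member, Foxn2 (1 of 41), which measured 1623, 773 and 1972 bp in the wildtype and 2017 and 1962 bp in the knockout libraries.

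Regulators outside the lists were present, and those named here beyond the rule were picked after their values were seen. Rest, the repressor of neuronal genes in non-neuronal cells, measured 1611, 1039 and 1772 bp in the wildtype and 1949 and 1968 bp in the knockout libraries. Zbtb20, a zinc-finger repressor, measured 1542, 1519 and 1532 bp in the wildtype and 1623 and 1544 bp in the knockout libraries, a gap of 2 bp between the genotypes at its smallest. Ikzf1, a zinc-finger factor best known from lymphocytes, measured 1569, 1572 and 1412 bp in the wildtype and 1755 and 1511 bp in the knockout libraries. Chromatin and elongation factors in the set included Ash1l, a histone methyltransferase, Ss18, a subunit of BAF remodelling complexes, Zmynd11, a reader of methylated histone tails, and Ell2, an elongation factor.

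In the knockout libraries nearly every domain was also broad. All 65 domains reached 1500 bp in knockout replicate 1 and 62 (95.4%) in replicate 2, where 4.12% and 1.54% of all wildtype regions with a peak there did. In near-broad regions the shares were 40.1% and 20.5%. The median of the widest peak was 1817 and 1747 bp. Both knockout widths exceeded all 3 wildtype widths at 48 domains (73.8%) and lay below them at 0, against 66.6% and 2.32% of the 73349 regions found in all 5 libraries. The ratio of mean knockout to mean wildtype width had a median of 1.19 at the domains, 1.25 in near-broad regions and 1.46 over all regions. These shares and ratios use the wildtype widths that chose the domains, and nothing is read from them.

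The lowest ratio of knockout to wildtype width, 0.980, was at Wbp4, a spliceosome-associated WW-domain protein, with 1507, 1496 and 1559 bp in the wildtype and 1558 and 1424 bp in the knockout libraries. Mctp1 (1527, 1592 and 1363 bp against 1581 and 1349 bp) and Slc35f1 (1663, 1572 and 1646 bp against 1621 and 1646 bp) followed, and the mean of Slc35f1 moved least, with a ratio of 1.00. At these 3 domains the knockout values lay inside or below the wildtype range, and Cast, Arhgap12 and the remote chromosome 5 domain came next. The greatest ratio, 1.65, was at Elf2, an Ets-family factor gene, with 1818, 1570 and 864 bp in the wildtype and 2369 and 2321 bp in the knockout libraries. Gm20783 followed with 1917, 1421 and 1500 bp against 2635 and 2631 bp, and Gnaq, the G-protein subunit alpha q, with 1635, 728 and 1631 bp against 2107 and 2055 bp. Pde3b, a phosphodiesterase gene, Tpbg, which encodes a Wnt-inhibiting membrane glycoprotein, and Zmynd11 made up the 6. Both knockout libraries were above all wildtype libraries at each of these 6. At Elf2, Gnaq, Pde3b and Tpbg 1 wildtype library had a peak under 1000 bp.

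To compare genotypes with a library that had no part in the choice, domains were set from each pair of wildtype libraries. Of 18 domains set without replicate 1, 14 (77.8%) were broad in replicate 1, and all 18 in both knockout libraries. Of 46 set without replicate 2, 14 (30.4%) were broad in replicate 2, against 46 and 45 in knockout replicates 1 and 2. Of 29 set without replicate 3, 14 (48.3%) were broad in replicate 3, against 29 and 27. Among all merged peaks, 0.0296% to 0.0879% were broad in the wildtype libraries, against 1.43% and 0.566% in knockout replicates 1 and 2. The held-out wildtype medians were 1620.5, 1413 and 1490 bp, and the knockout medians 1711 to 1876 bp. Every held-out wildtype library was below both knockout libraries in median width, while the place among the widest peaks of a library ran the other way. The median width rank, with 1 the widest peak, was 71.5, 87.5 and 91 in held-out wildtype replicates 1, 2 and 3 and 305 to 826 in the knockout libraries, whose lists hold wider peaks throughout. The direction of the width difference therefore depends on whether width is taken in bp or relative to its own list.

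A wider set took the 1032 regions that were 1500 bp or wider in at least 2 of all 5 libraries, whatever their genotype. The knockout lists hold most broad peaks, and 1015 regions were broad in both knockout libraries, so knockout width chose nearly all of this set and largely fixed the direction of the difference. Their median width was 1022, 813.5 and 877 bp in the wildtype libraries, mean 904 ± 107 bp (SD, n = 3), and 1767 and 1647.5 bp in the knockout libraries, mean 1707 ± 84.5 bp (SD, n = 2). The difference of 803 bp had p = 0.1 in a two-sided exact permutation test over 10 splits, the smallest p that 3 against 2 libraries allow. As knockout width chose nearly all of the regions, nothing is read from this p. Without knockout replicate 1 the choice left 177 regions and the difference was 322 bp, and without knockout replicate 2 it left 189 regions and 430 bp. Of the 1015 regions broad in both knockout libraries, 62 (6.11%) overlapped a wildtype domain. Of the 1000 widest peaks of a library, 46.4% to 50.6% were shared between wildtype libraries, 48.0% between the knockout libraries and 16.5% to 36.3% across genotypes.

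Although wider in bp, the domains stood lower in the knockout lists by strength. Peaks were ranked within a library by −log10 p, with 1 the strongest, and the best rank in a domain was taken. The median rank was 9187, 7435 and 7345 in wildtype replicates 1, 2 and 3 and 18837 and 13850 in knockout replicates 1 and 2. The rank number was higher (weaker) in both knockout than in all wildtype libraries at 47 domains (72.3%) and lower at 2 (3.08%). Over the 73349 regions the shares were 29.4% and 25.5%, and in near-broad regions they were 54.7% and 11.8%. Within classes of median wildtype rank, 76.2% of domains against 46.5% of all regions had weaker knockout ranks up to rank 5000, 69.7% against 38.4% between ranks 5000 and 20000, and 72.7% against 31.3% between 20000 and 50000. Wildtype rank went with the wildtype widths that chose the domains, with a median rank of 73717 below 500 bp and 7345 at the domains. Weaker knockout ranks may thus be partly built into these counts, which are given as a description. The knockout lists were longer, and with each rank divided by the length of its list the count was 37 of 65 (56.9%) in a background of 18.8%, and the count of domains stronger in both knockout libraries went from 2 to 7. That second count was also 5 without wildtype replicate 3, 6 without knockout replicate 1 and 4 without knockout replicate 2. Beside these altered second counts no share over all regions was taken.

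Held-out libraries gave the same order of medians. Domains set without wildtype replicate 1 had a median rank of 6827.5 there and of 18156 and 14170 in the knockout libraries. Without replicate 2 the values were 8552 against 19233 and 13080, and without replicate 3 they were 6342 against 19015 and 15395. Both knockout ranks were weaker than that of the held-out library at 12 of 18, 36 of 46 and 25 of 29 domains. No share over all regions was taken beside these counts, and the knockout lists were longer, so nothing is read from them.

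The shift in rank differed from gene to gene. At Zbtb20 the ranks were 374, 62 and 201 in the wildtype against 2265 and 1039 in the knockout libraries, the largest ratio of mean ranks in the set (7.78). Itgb8, the integrin beta-8 subunit that activates latent TGF-beta, had ranks of 5175, 2237 and 3437 against 30352 and 16634. Tmem229a, a transmembrane protein gene, had 8033, 5275 and 6243 against 35388 and 39660. At these 3 genes all knockout ranks lay beyond the wildtype range. Prom1, with 15048, 11031 and 8143 against 52533 and 42628, and Tdrd3, a Tudor-domain reader of arginine methylation, with 1295, 1346 and 546 against 5525 and 4627, did not overlap either. The reverse was seen at Gm34296 (16386, 20787 and 23418 against 6442 and 6334) and at Prdm10 (6674, 8582 and 5497 against 5290 and 5303), the 2 domains that ranked stronger in both knockout libraries.

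**Figure D5:**
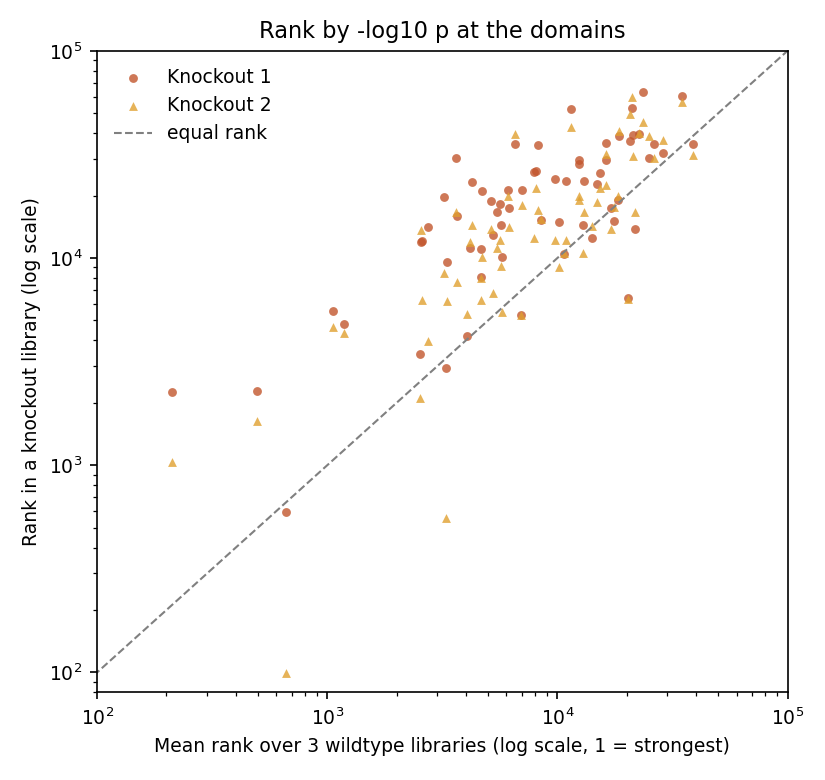
Rank by −log10 p (log scale, 1 is strongest) of each domain in knockout replicates 1 and 2 against its mean rank over the 3 wildtype libraries, with equal rank dashed. Points above the line rank weaker in the knockout library, and 47 of 65 domains are weaker in both knockout libraries than in every wildtype library.

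The other deposited measures of strength moved differently. The −log10 p itself was higher in both knockout libraries at 61 of 65 domains, in a background of 81.1%, and lower at 0 (background 0.994%). Near-broad regions were higher in 93.0%, against 93.8% of the domains. The median −log10 p was 117, 71.2 and 53.7 in the wildtype against 311 and 219 in the knockout libraries. The fold enrichment over the local background of the library had medians of 10.1, 9.78 and 8.53 in the wildtype against 8.18 and 9.19 in the knockout libraries, so that knockout replicate 2 lay inside the wildtype range. It was higher in both knockout libraries at 7 domains (10.8%) and lower at 13 (20.0%), against 40.7% and 8.99% of all regions. Near-broad regions, at 11.2% and 17.5%, were close to the domains. Among the strongest regions, up to a median wildtype rank of 5000, fold enrichment was higher in both knockout libraries at 4.76% of domains and 6.08% of all regions. At Rab28, a small GTPase gene, the fold enrichment was 18.9, 15.3 and 15.2 in the wildtype against 12.39 and 12.99 in the knockout libraries. At Tnks1bp1, which encodes a tankyrase-binding protein, it was 9.77, 10.2 and 10.3 in the wildtype against 11.7 and 14.5 in the knockout libraries. Rab28 and Tnks1bp1 show both directions without overlap of the genotypes.

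Sox4 sites, present in at least 2 of 3 CUT&RUN replicates among the 20000 strongest peaks of each, overlapped 7 of 65 domains (10.8%, exact 95% binomial interval 4.44% to 20.9%). The share over all wildtype regions was 1.01%, and in near-broad regions it was 10.3% (interval 8.79% to 11.9%). When the whole extent was replaced by a window reaching 250 bp to either side of the strongest ATAC summit, the shares were 9.23% at the domains, 10.2% in near-broad regions, 3.73% from 500 bp to under 1000 bp and 0.271% below 500 bp. Up to a median wildtype rank of 5000, 6 of 21 domains (28.6%, interval 11.3% to 52.2%) had a site, against 18.9% of near-broad regions and 10.6% of all regions outside domains. Between ranks 5000 and 20000 the values were 1 of 33 (3.03%), 7.68% and 3.27%. Between 20000 and 50000 there was a site in 0 of 11 domains, for which the exact interval reaches 28.5%. The shares there were 1.46% of near-broad regions and 0.507% of all regions outside domains, so 0 of 11 is no result about the domains. The overlap was thus concentrated in the strongest domains, as it was among other regions, and no difference from near-broad regions was detectable with so few domains. Single replicates overlapped 9, 11 and 11 domains (13.8%, 16.9% and 16.9%), against 2.25%, 2.40% and 2.79% of regions outside domains. Leaving out any 1 Sox4 replicate and requiring both others left 4 domains (6.15%, against 0.482% to 0.611% of other regions), and leaving out wildtype ATAC replicate 1 gave 5 of 18 (27.8%).

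In 3 of the 7 domains the site was present in all 3 Sox4 replicates. That between genes near Otol1 (chr3:69992715-69994252), which encodes otolin, a collagen-like protein of the inner ear's otoconia, had Sox4 ranks of 150, 124 and 722. Its ATAC peak measured 1524, 1538 and 1051 bp in the wildtype and 1605 and 1524 bp in the knockout libraries, and its ATAC ranks were 5430, 3579 and 4910 against 11020 and 7971. The knockout libraries thus kept a peak of 1500 bp or more there, of lower rank. The domain 58335 bp from Irs2 (chr8:10924475-10926346), a substrate of the insulin receptor, had Sox4 ranks of 11300, 5356 and 198. Its ATAC widths were the most even of the widest domains, with 1872, 1838 and 1847 bp in the wildtype and 1927 and 1911 bp in the knockout libraries, at ranks of 12939, 14357 and 11618 against 14407 and 10593. At Zbtb20 (chr16:42874889-42876440) the Sox4 ranks were 6414, 28 and 77, and the midpoint of the site lay 43 bp from the strongest ATAC summit.

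The other 4 sites were found in 2 replicates. At the domain near Zfp958, a zinc-finger protein gene, the Sox4 ranks were 121 and 491 in replicates 2 and 3. Its ATAC ranks were 748, 693 and 537 in the wildtype against 594 and 99 in the knockout libraries, which overlap. Arhgap12 had Sox4 ranks of 594 and 670 in replicates 2 and 3, with ATAC widths of 1597, 1580 and 1575 bp against 1645 and 1591 bp. At Itgb8 (chr12:119237717-119239308) the site had ranks of 1279 and 6248 in replicates 1 and 3. Its midpoint lay 764 bp from the strongest ATAC summit. At Rab28 (chr5:41707090-41708707) the ranks were 17337 and 1254 in replicates 1 and 2, the first of them near the limit of 20000. All 7 were 1500 bp or wider in both knockout libraries, as were nearly all domains (65 and 62 of 65). Among the 7, both knockout ranks were weaker than all wildtype ranks at Otol1, Itgb8, Zbtb20 and Rab28 and overlapped the wildtype range at Irs2, Zfp958 and Arhgap12, which is 4 of 7 beside 47 of 65 for all domains.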

How the data were processed

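ATAC-seq of wildtype (3 libraries) and SoxC double knockout (2 libraries) epithelia and Sox4 CUT&RUN (3 replicates) were used as deposited peak lists, 1 per library. MACS2, STAR, deepTools and (Sox4 only) UMI-tools appear in the submitters' processing notes with no version, beside builds GRCm38 and mm10. The deposited fold enrichment is a ratio of a summit to the local background of its library, and significance was deposited by the authors as −log10 p and −log10 q. These values are the authors', and they describe or rank peaks within a list. Starts and ends gave the widths, and the summit offset gave the summit. Depth per sample is not given by such lists.

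Rows that overlapped within a library were merged. In every list such rows had identical extents, so merging only joined summits and width is that of the deposited peak. Genes were 20661 autosomal coding genes of a RefSeq table (GRCm38.p6) without strand, so either gene end counted, and starts, strands and sequences came from RefSeq promoter windows. A domain is named by the coding gene with the nearest end within 100 kb. Shares have exact binomial intervals at 95%. The genotypes were compared by counts of domains without overlap, by held-out libraries, and by an exact permutation over libraries. Python 3.11.15, numpy 2.4.6, pandas 2.3.3, scipy 1.17.1 and matplotlib 3.10.9 were used. The merging and domain steps were tested on simulated data.

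Members and lists were chosen with earlier results of these data known. The naming rule took the 12 widest domains, the 6 highest and 6 lowest ratios of knockout to wildtype width, genes of the lists, the domains with a Sox4 site, and 3 on each side of the threshold. Chromosomes X and Y, the 2 single-cell libraries and a further list of Sox4 replicate 1 (used as an alternative) were left out.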

Additional observations from a re-analysis of the deposited data

How the results depend on the processing

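The number of domains followed the rule closely. It was 1615 at a threshold of 1000 bp, 1 at 2000 bp, 295 with rows merged within 200 bp, 14 with support in all 3 libraries and 797 with the 1000 widest peaks of each library in place of a threshold. Leaving out 1 wildtype library gave 18 to 46 domains. The single domain at 2000 bp lay at a gene end (100%), had no Sox4 site (0%) and could be held out in 1 configuration (100 percentage points). Otherwise the gene-end share ran from 70.77% to 85.71% (82.61% to 83.33% with a wildtype library left out). Sox4 overlap was 28.57% with support in all 3 and 21.54% with all deposited Sox4 peaks (2.79% of other regions), and 6.154% to 27.78% with 1 ATAC or Sox4 library left out. A further list of Sox4 replicate 1, added after the data were seen, gave 12.31% alone. The mean lead of the knockout over the held-out library in the share of broad domains was 46.33 percentage points (SD 23.19 over 3 libraries). The 3 leads share both knockout libraries, so this SD is not a spread over independent samples. Broad peaks were more frequent throughout the knockout lists, and no lead over all regions was taken. The width difference of regions chosen over all 5 libraries ran from 321.7 to 864.8 bp with 1 library left out. Knockout width chose nearly all of the full set, so this difference is a description. The count of domains of weaker rank in the knockout was 48 to 52 with a library left out, with no share over all regions taken beside it. Replicate numbers are shared between genotypes, but nothing in the labels pairs the libraries. With the number as a replicate block, the width difference of the regions chosen over all 5 libraries was 789.5 bp over 2 pairs (exact sign-flip permutation p = 0.5). Nothing is read from that p either. In each case the cause was not tested. Peak lists carry no depth, which limits every comparison of width between genotypes.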
